A study of Mus musculus with 24 samples.

Results

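The Gadd45 and Btg/Tob growth-arrest genes were followed in mouse spleen cells as 2 small families of 8 genes, out of 21671 genes in the deposited tables. The Gadd45 family comprised Gadd45a, Gadd45b and Gadd45g, and the Btg/Tob family comprised Btg1, Btg2, Btg3, Tob1 and Tob2. Members were chosen by gene symbol. Levels are RPKM, reads per length of exon and per depth of reads mapped to exons, so that levels of different genes are compared per length.

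The RNA came from spleens of C57/Bl6 mice of 8 weeks of age that were either wild-type (Trp53+/+) or knockout (Trp53-/-) for the gene of p53. Mice received a whole-body dose of 7 Gy of ionizing radiation (IR) and were analysed 4 h later, or were left unstressed (mock). Splenocytes were depleted of red blood cells by hypotonic lysis and passed over B220 magnetic beads. The bound fraction is called B cells and the flow-through non-B cells. Each of the 8 groups of cell type, genotype and treatment held 4 Trp53+/+ or 2 Trp53-/- samples, 24 in all. By the study's methods these are as many mice in each condition, and the sample records do not say whether B and non-B samples of the same number came from 1 spleen.

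Gadd45 proteins are small stress sensors that bind the kinase Map3k4, upstream of the p38 and JNK kinases, as well as Pcna and the Cdk1 and cyclin B1 complex of mitotic entry. Btg and Tob proteins share an antiproliferative domain that docks onto the Cnot7 and Cnot8 subunits of the CCR4-NOT deadenylase, the enzyme complex that shortens mRNA tails, and Btg1 and Btg2 are known to hold resting lymphocytes in quiescence. Gadd45a and Btg2 are textbook p53 target genes, whereas Gadd45b is best known as a target of NF-kB signalling.

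The sorted fractions carried the markers of their labels in part. Summed RPKM of 5 B cell markers (Ms4a1, Cd79a, Cd79b, Cd22 and Pax5) ranged from 613 to 714 in unstressed Trp53+/+ B cells and still from 223 to 356 in unstressed Trp53+/+ non-B cells, so that the non-B fraction retained B cell RNA. Summed RPKM of 7 T cell markers ranged from 60.7 to 67.9 in the former and from 338 to 488 in the latter. For 6 myeloid markers the sum was 242 to 319 in the former and 294 to 353 in the latter. The B fraction thus held myeloid marker RNA too. Estimated depth was 4740000 to 10960000 reads per library. Every irradiated Trp53+/+ B cell library had a lower estimated depth than each irradiated Trp53-/- B cell library. In non-B cells the depths of these groups overlapped. In 5 of the 8 irradiated Trp53+/+ libraries, over 20% of 1434 olfactory and vomeronasal receptor genes had an RPKM above 0 (24.6% to 51.3%). Spleen cells should not express these genes. The share was 5.3% to 9.21% in unstressed libraries of both genotypes and 6.76% to 13.04% in irradiated Trp53-/- libraries. All libraries over 20% were thus irradiated Trp53+/+ ones, so that genotype comparisons after IR also compare libraries unequal in this share. Trp53 itself was listed at a mean of 21.6 RPKM in unstressed Trp53-/- B cells against 46.2 in Trp53+/+ B cells; a sum over the whole gene does not separate deleted from retained exons and does not check the genotype. The p53-activated inhibitor gene Cdkn1a did separate the genotypes, with a log2 difference after IR of 5.83 ± 0.12 (SE) in Trp53+/+ B cells and 0.02 ± 0.18 in Trp53-/- B cells.

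The promoters of the members that later results turn on are shown to place them by their known core elements. Each sequence is the 250 bases before the gene start, 5′ to 3′ on the strand of the gene, from RefSeq (GRCm38.p6), where all 8 members were found. Capitals mark a TATA box (TATAAA, this strand only), a CCAAT box (CCAAT, both strands), a half-site of the cAMP response element (TGACG, both strands) or a GC box (GGGCGG, both strands). The positions are chr6:67037408-67037657 for Gadd45a (minus strand), chr13:51846425-51846674 for Gadd45g (plus strand), chr1:134079156-134079405 for Btg2 (minus strand) and chr11:94211204-94211453 for Tob1 (plus strand).
Gadd45a: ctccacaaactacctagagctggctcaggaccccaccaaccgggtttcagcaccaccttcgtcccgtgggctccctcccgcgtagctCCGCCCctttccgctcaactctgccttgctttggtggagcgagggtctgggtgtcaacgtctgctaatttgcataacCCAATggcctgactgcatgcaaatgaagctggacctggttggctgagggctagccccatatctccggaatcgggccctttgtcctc
Gadd45g: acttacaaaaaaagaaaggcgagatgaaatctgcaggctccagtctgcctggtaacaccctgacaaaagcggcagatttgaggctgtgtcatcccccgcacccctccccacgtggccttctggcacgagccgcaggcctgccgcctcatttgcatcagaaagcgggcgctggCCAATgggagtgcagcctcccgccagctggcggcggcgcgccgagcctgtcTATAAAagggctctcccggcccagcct
Btg2: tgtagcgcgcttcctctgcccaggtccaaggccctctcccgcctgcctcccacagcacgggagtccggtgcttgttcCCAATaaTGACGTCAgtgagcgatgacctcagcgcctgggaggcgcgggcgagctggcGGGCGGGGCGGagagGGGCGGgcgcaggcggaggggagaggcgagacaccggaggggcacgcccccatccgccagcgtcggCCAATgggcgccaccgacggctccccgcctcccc
Tob1: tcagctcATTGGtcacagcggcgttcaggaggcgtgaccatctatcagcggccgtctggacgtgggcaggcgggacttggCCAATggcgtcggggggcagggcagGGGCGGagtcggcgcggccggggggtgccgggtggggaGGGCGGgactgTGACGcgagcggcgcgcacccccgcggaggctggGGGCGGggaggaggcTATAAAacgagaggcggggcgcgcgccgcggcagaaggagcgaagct

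Among 32851 RefSeq promoters of the same length, 7.6% held the TATA box, 33.8% the CCAAT box, 17.8% the half-site and 32.7% the GC box. The corresponding counts among the 8 members were 4 (Gadd45b, Gadd45g, Btg1 and Tob1), 7 (all except Tob2), 3 (Btg1, Btg2 and Tob1) and 7 (all except Gadd45g). These are matches of letters, and their use by a factor was not measured here.

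The p53 response element was searched for in the mm9 genome (NCBIM37), which the authors used for alignment. The full element is a pair of 10-base half-sites, searched for here only where they adjoin. Forms with a spacer between the half-sites, which the authors also scanned for, were left out. The C and G that bound the core of each half-site had to match, and up to 2 mismatches were allowed elsewhere. By this rule no member had a match from 5 kb before to 2 kb after its start. Among 22350 windows of coding genes, 7.0% had one. Of the 10 reference p53 targets described at the end, 4 had one (Ccng1, Zmat3, Bax and Pmaip1) and 6 did not, so that the search also leaves out known targets. Single perfect half-sites were then looked for in the 500 bases before the start, a search added after the first had found none, and 3 members had one against 13.72% of 22350 windows. They are shown with 10 bases on each side and the half-site in capitals, at chr1:135975985-135975994 for Btg2 (minus strand), chr6:66987868-66987877 for Gadd45a (minus strand) and chr10:96079332-96079341 for Btg1 (plus strand).
Btg2: gacgacgtccGGGCATGCCCggtgtagcgc
Gadd45a: ataaacactgAAGCAAGCTTtgcccggcat
Btg1: accgggggcgGAGCTAGCTCgggggcggag

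The Btg2 half-site ended 288 bases before the gene start, that of Gadd45a 417 bases and that of Btg1 294 bases before it. A half-site in this window says only that these letters are present, and p53 binding was not analysed here.

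All 8 members were expressed in every group. Over the samples, Btg2 and Btg1 were at the top per length (48.1 to 122 and 47.2 to 91.6 RPKM), and the other members ranged from 5.09 RPKM (Gadd45g) to 49.1 RPKM (Gadd45b). Duplicate reads had been collapsed, which can hold down high values and their changes. The part of this in the Btg2 and Btg1 values was not tested. All passed the filter on low values in each fit. Btg4, the remaining gene of the Btg family, had at most 0.418 RPKM and was listed at 0 in 14 of 24 samples. Because RNA was measured in bulk, fewer cells of a type and less RNA per cell cannot be told apart.

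**Figure D1:**
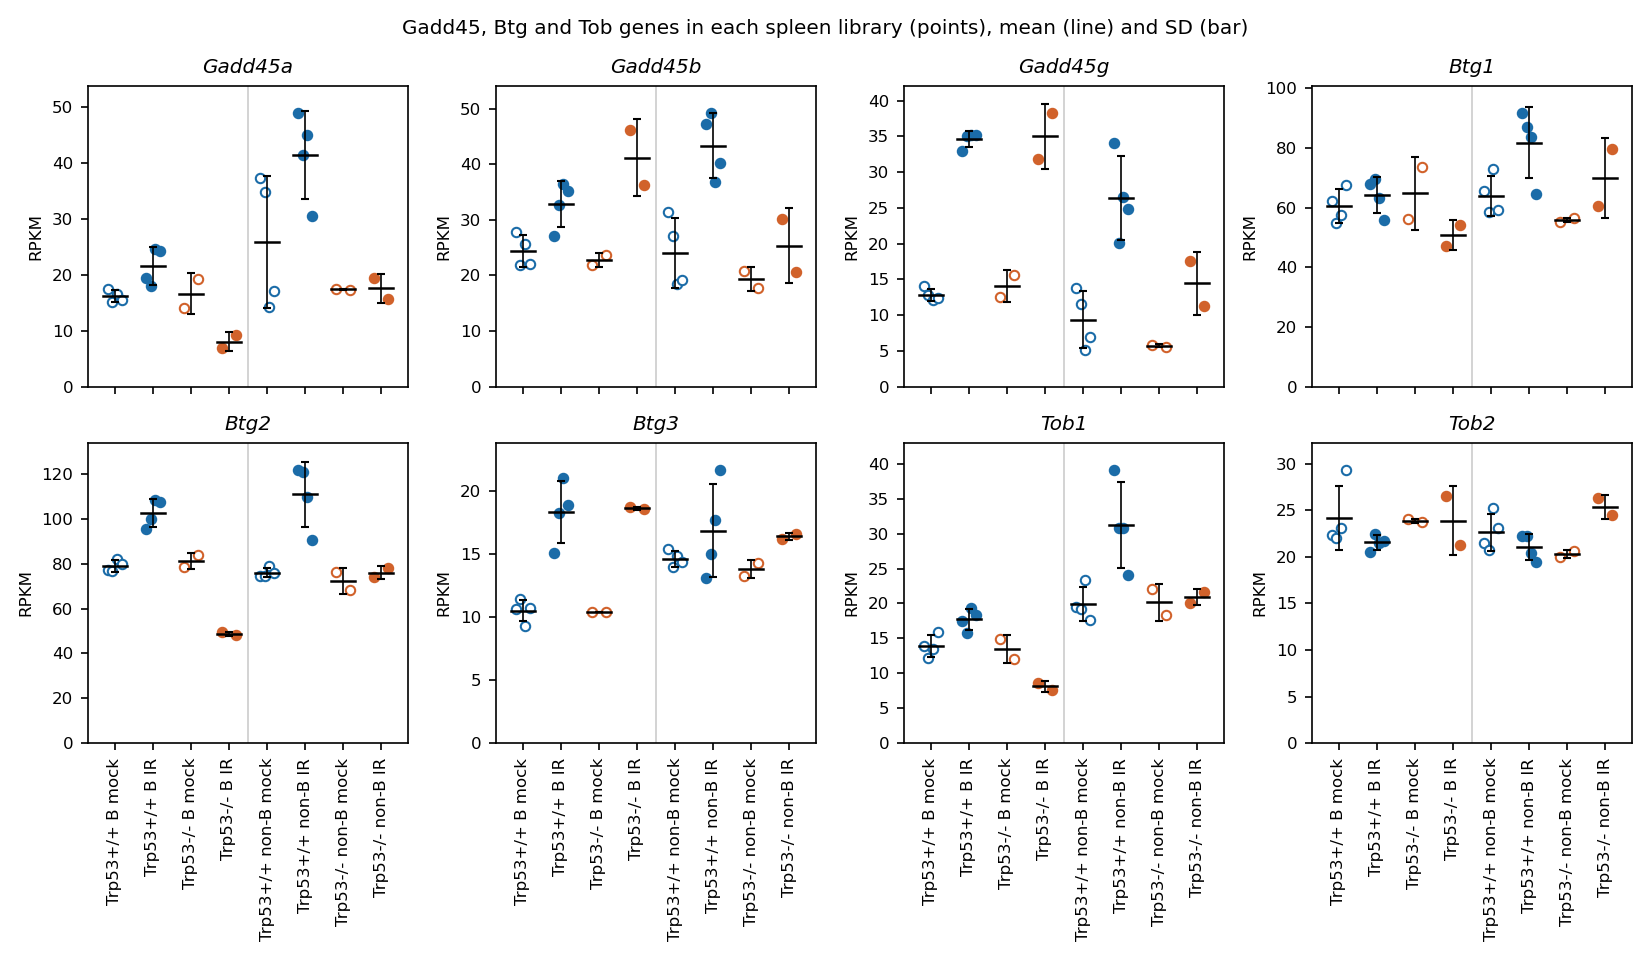
RPKM (vertical axis, linear from 0) of each of the 8 genes in every library, by group. Open points are mock and filled points IR, blue Trp53+/+ and orange Trp53-/-, with the mean as a line and the SD as a bar (n = 4 or 2). In B cells Gadd45a, Btg2 and Tob1 parted by genotype after IR (8.03, 48.8 and 8.14 RPKM on average without p53), whereas Gadd45g and Btg3 were high after IR in both genotypes.

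Before irradiation, the genotypes did not separate for any member. Differences between unstressed Trp53-/- and Trp53+/+ B cells lay between −0.09 (Gadd45b) and 0.12 (Gadd45g) on the log2 scale, all with an adjusted p of 1. The widest 95% interval, that of Gadd45a, ran from −0.32 to 0.37. None had an unadjusted p under 0.05, and 0.0506% of all 13821 genes tested were called. In non-B cells, differences lay between −0.57 (Gadd45g, 95% interval −1.31 to 0.17) and 0.02 (Tob1), none was called or had an unadjusted p under 0.05, and 0.0428% of 14018 genes were called. Here and below, a gene counts as called where limma on log2(RPKM + 0.5) gave an adjusted p under 0.05 together with a log2 difference beyond 0.58 in either direction. A difference between 2 IR responses was called by its adjusted p alone.

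The question of the irradiated comparison was which members responded in cells with p53, and whether the response was lost without it. In Trp53+/+ B cells, 2 of the 8 members rose past both thresholds, Gadd45g and Btg3, where 12.5% of all genes tested were called higher. None of the members fell, where 12.2% of all genes did. Another 4, Gadd45a, Gadd45b, Btg2 and Tob1, had an adjusted p under 0.05 with log2 differences of 0.34 to 0.42, below the fold threshold. With the receptor gene share as a covariate 4 members were called higher, Gadd45a and Gadd45b besides these 2. The median log2 difference was 0.387 over the members and 0.0111 over all genes. In Trp53-/- B cells, 3 members rose (Gadd45b, Gadd45g and Btg3, with 13.1% of all genes called higher) and 3 fell (Gadd45a, Btg2 and Tob1, with 11.2% called lower). There the median was −0.174 over the members and 0.0176 over all genes. The responses of Gadd45a, Btg2 and Tob1 differed between genotypes, 3 of 8 members against 18.8% of all genes. Summed erythroid marker RPKM, described below for non-B cells, was 54.9 to 90.9 in unstressed and 27.1 to 33.0 in irradiated Trp53+/+ B cells. In Trp53-/- B cells it was 43.5 and 112 unstressed and 55.5 and 85.4 after IR. Of 6 erythroid markers, 4 were called lower after IR in Trp53+/+ B cells and none was called in Trp53-/- B cells. For the genotype difference of the response in B cells, 2 of them were called. Summed myeloid marker RPKM was 242 to 319 in unstressed and 176 to 270 in irradiated Trp53+/+ B cells. In Trp53-/- B cells it was 222 and 237 unstressed and 131 and 225 after IR. The part of erythroid or myeloid RNA in these results was not tested.

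**Figure D2:**
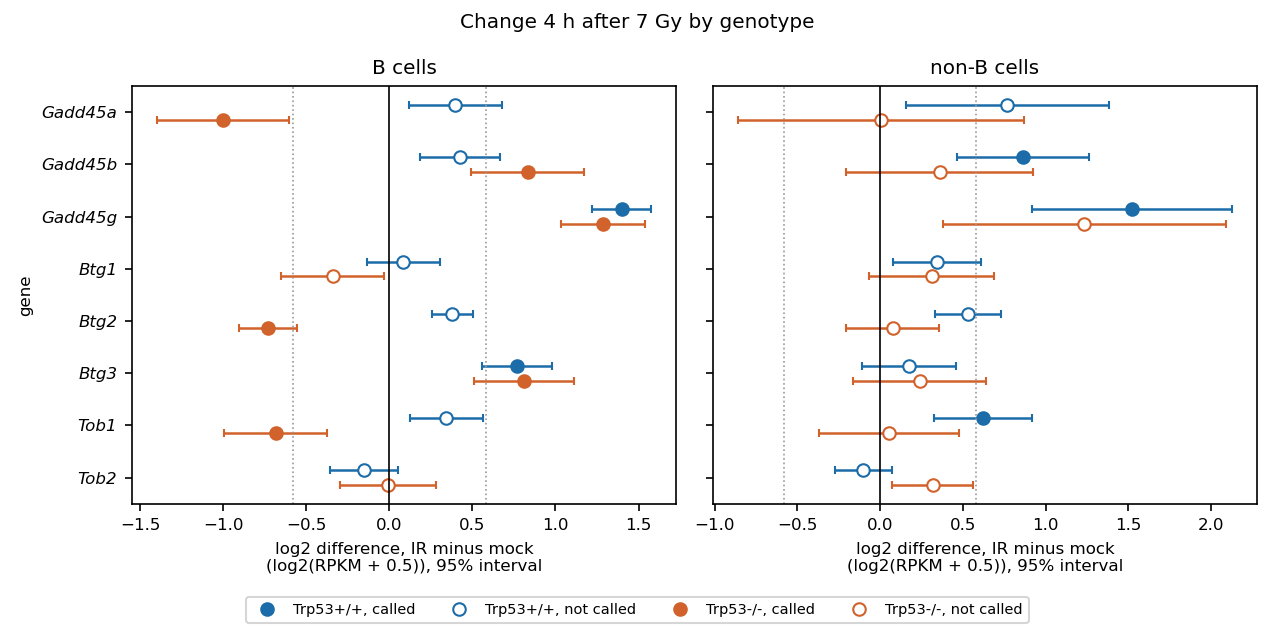
Log2 difference between IR and mock for each gene (horizontal axis, log2(RPKM + 0.5)) with its 95% interval, in B cells (left) and non-B cells (right), for Trp53+/+ (blue) and Trp53-/- (orange). Filled points were called and dotted lines mark ±0.58. In B cells Gadd45a, Btg2 and Tob1 lie on opposite sides of 0 in the 2 genotypes (0.40 and −1.0 for Gadd45a), while the points for Gadd45g (1.4 and 1.29) and Btg3 (0.77 and 0.81) lie together.

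Gadd45a, the founding member of its family, parted by genotype after IR. Its level in Trp53+/+ B cells was 17.4, 15.2, 16.6 and 15.4 RPKM in unstressed samples and 19.4, 18.02, 24.6 and 24.2 RPKM after IR. In Trp53-/- B cells it was 14.1 and 19.2 RPKM unstressed and 6.85 and 9.20 RPKM after IR. Every irradiated Trp53+/+ value was above the unstressed ones, and both irradiated Trp53-/- values were below all other B cell samples.

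The log2 difference of Gadd45a was 0.40 ± 0.13 (SE, adjusted p = 0.0221) in Trp53+/+ B cells and −1.0 ± 0.18 (adjusted p = 0.000924) in Trp53-/- B cells. The difference between these responses was 1.4 ± 0.22 (95% interval 0.91 to 1.89, adjusted p = 0.00129), and 2.87% of genes tested had a higher value. In Trp53+/+ B cells the estimate moved to 0.61 with the share of receptor genes above 0 as a covariate. Without the libraries above 20%, it was 0.584, just over the fold threshold. Gadd45a was called in both cases. The omission leaves irradiated replicates 3 and 4. The share was 6.97% to 47.2% in irradiated Trp53+/+ B cells and 5.3% to 13.04% in the other B cell libraries, so that the covariate rests mainly on the former.

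Gadd45b, a stress gene that also answers to cytokines, rose without p53. In B cells it was at 27.9, 21.9, 25.6 and 22.0 RPKM in unstressed and 27.1, 32.7, 36.4 and 35.2 RPKM in irradiated Trp53+/+ samples. In Trp53-/- samples it was at 21.9 and 23.6 RPKM unstressed and at 46.1 and 36.3 RPKM after IR. The Trp53+/+ groups overlapped by 1 sample and the Trp53-/- groups were apart. The log2 difference was 0.83 ± 0.16 (adjusted p = 0.00112) in Trp53-/- and 0.42 ± 0.11 (adjusted p = 0.00664) in Trp53+/+ B cells. The difference between genotypes, −0.41 (95% interval −0.82 to 0.01, adjusted p = 0.162), was not called.

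Gadd45g, known as a cytokine-induced member of the family, rose in both genotypes. Its level was 14.04, 12.7, 12.1 and 12.4 RPKM in unstressed and 32.9, 35.1, 35.2 and 35.2 RPKM in irradiated Trp53+/+ B cells. The Trp53-/- values were 12.5 and 15.6 RPKM unstressed and 31.8 and 38.2 RPKM after IR. Irradiated and unstressed samples did not overlap in either genotype, and the irradiated Trp53-/- pair enclosed the Trp53+/+ values.

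The log2 differences of Gadd45g were 1.4 ± 0.08 (adjusted p = 5.24e-08) and 1.29 ± 0.12 (adjusted p = 6.38e-06). Their difference of 0.11 had a 95% interval of −0.20 to 0.42 (adjusted p = 0.637). Of all genes tested in Trp53+/+ B cells, 2.98% had a larger increase.

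The makeup of the Gadd45 family followed these values. The summed Gadd45 RPKM went from 53.3 ± 4.5 (SD, n = 4) to 89.0 ± 7.8 in Trp53+/+ B cells and from 53.5 ± 7.0 (SD, n = 2) to 84.2 ± 0.7 in Trp53-/- B cells. Within it, the share of Gadd45a was 30.3% ± 0.7 unstressed and 24.2% ± 2.2 after IR with p53, but 30.9% ± 2.7 and 9.54% ± 2.1 without p53. The Gadd45g share was 24.1% ± 1.4 and 39.0% ± 2.5 with p53, and 26.3% ± 0.7 and 41.6% ± 5.8 without it. The irradiated Trp53-/- sum lay within 1 SD of the irradiated Trp53+/+ mean. These shares are descriptions and were not tested.

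**Figure D3:**
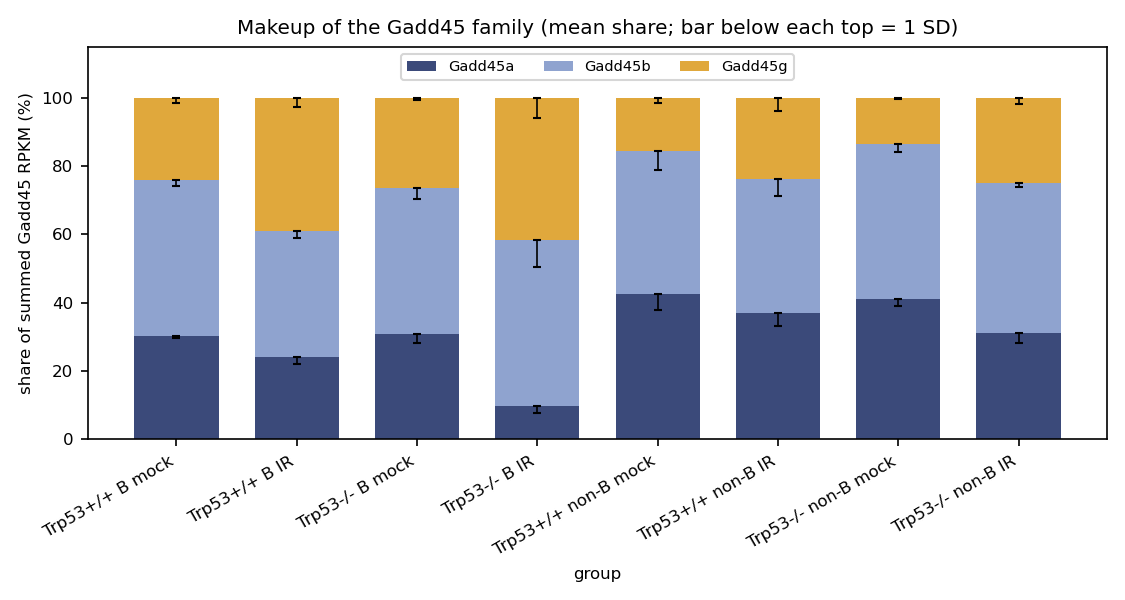
Mean share of Gadd45a, Gadd45b and Gadd45g in the summed Gadd45 RPKM (vertical axis, percent) in each group. Bars below each segment's top mark 1 SD (n = 4 Trp53+/+, 2 Trp53-/-). The Gadd45a segment is smallest in irradiated Trp53-/- B cells, at 9.54%.

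Btg2, which recruits the deadenylase and restrains the cell cycle, was on average the most abundant member in every group except irradiated Trp53-/- B cells, where Btg1 was higher. In B cells it was at 77.1, 76.6, 82.1 and 79.7 RPKM in unstressed and at 95.2, 100.1, 108 and 107 RPKM in irradiated Trp53+/+ samples. In Trp53-/- samples it was at 78.7 and 83.8 RPKM unstressed and at 49.4 and 48.1 RPKM after IR. No irradiated value overlapped an unstressed one in either genotype, and the irradiated values lay above the unstressed ones with p53 and below them without it.

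The log2 difference of Btg2 was 0.38 ± 0.06 (adjusted p = 0.00014) with p53, under the fold threshold, and −0.73 ± 0.08 (adjusted p = 2.28e-05) without it. The responses differed by 1.11 ± 0.10 (95% interval 0.89 to 1.32, adjusted p = 1.1e-05), the smallest adjusted p of this comparison among the members.

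Tob1, a Btg relative that also contacts poly(A)-binding protein and is known to restrain T cell activation, showed the same pattern at a lower level. It was at 13.9, 12.2, 13.5 and 15.9 RPKM in unstressed and at 17.5, 15.8, 19.3 and 18.4 RPKM in irradiated Trp53+/+ B cells. In Trp53-/- B cells it was at 14.9 and 12.01 RPKM unstressed and at 8.68 and 7.61 RPKM after IR. The Trp53+/+ groups overlapped by 1 sample and the Trp53-/- groups did not. Log2 differences were 0.34 ± 0.10 (adjusted p = 0.0133) and −0.69 ± 0.14 (adjusted p = 0.00229), and the responses differed by 1.03 ± 0.18 (95% interval 0.65 to 1.41, adjusted p = 0.00195). Without replicate 1 of the unstressed Trp53-/- B cells the decrease was −0.54 (adjusted p = 0.0358) and was no longer called, since the fold was then below the threshold.

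Btg3, another Btg/Tob protein with deadenylase contacts, rose in B cells of both genotypes. Its level was 10.7, 11.4, 9.34 and 10.7 RPKM in unstressed and 15.1, 18.2, 21.1 and 18.9 RPKM in irradiated Trp53+/+ samples. Without p53 it was 10.4 and 10.4 RPKM unstressed and 18.7 and 18.6 RPKM after IR. The groups did not overlap. The log2 differences were 0.77 ± 0.10 (adjusted p = 3.58e-05) and 0.81 ± 0.14 (adjusted p = 0.000551), and their difference of −0.04 had a 95% interval of −0.41 to 0.32 (adjusted p = 0.888).

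Btg1 and Tob2 gave no call in B cells. Btg1, a close relative of Btg2, ranged from 54.8 to 67.7 RPKM in unstressed and from 56.0 to 69.7 RPKM in irradiated Trp53+/+ B cells, and from 56.1 to 73.5 and 47.2 to 54.3 RPKM in the Trp53-/- groups. Its log2 differences were 0.08 (95% interval −0.14 to 0.30) and −0.34 (−0.65 to −0.03, adjusted p = 0.0758). Tob2, the relative of Tob1, stayed between 20.6 and 29.3 RPKM in all 12 B cell samples, with log2 differences of −0.15 (−0.36 to 0.05) and −0.01 (−0.30 to 0.28).

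In non-B cells, which here hold T cells, NK cells, myeloid cells and residual B and erythroid cells by their markers, 3 of 8 members rose in Trp53+/+ samples, Gadd45b, Gadd45g and Tob1, where 5.74% of all genes were called higher. No member fell, where 4.11% of all genes did. The median log2 difference was 0.577 over the members and −0.0303 over all genes. Without the 3 irradiated libraries above 20% of receptor genes, which leaves 1, only Btg2 was called (0.67, adjusted p = 0.0118), with differences of 1.05, 1.16 and 0.62 for Gadd45b, Gadd45g and Tob1. In Trp53-/- non-B cells no member was called in either direction by limma, and 0.193% of all genes were called higher and 0.25% lower. At an unadjusted p under 0.05, 2 members were higher there, Gadd45g and Tob2. The split of the genes called there depended on scaling, with 43.5% of calls higher as reported, 55% with median-ratio scaling and 62.5% with quantile normalization. No member differed between genotypes in its response, against 7.35% of all genes, and Btg2 and Tob2 had adjusted p of 0.0992 and 0.0882. The unadjusted p of this difference was under 0.05 for 3 members, Btg2, Tob1 and Tob2.

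Markers of other cell types moved in the same non-B comparisons. In Trp53+/+ samples the summed RPKM of B cell markers was 223 to 356 unstressed and 142 to 281 after IR, with 1 of 5 called lower. That of T cell markers was 338 to 488 unstressed and 275 to 362 after IR, with 1 of 7 called lower, and that of myeloid markers 294 to 353 and 328 to 482, with 1 of 6 called higher. In Trp53-/- samples B cell markers were at 275 to 346 RPKM unstressed and 275 to 373 RPKM after IR, and platelet markers at 47.3 to 63.7 unstressed and 16.8 to 25.3 RPKM after IR, with 1 of 4 called lower and 2 of 4 called for the genotype difference. The part of these cells in the results was not tested.

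Gadd45g and Gadd45b were the members of the Gadd45 family called in non-B cells. Gadd45g was at 13.8, 11.5, 5.09 and 6.96 RPKM in unstressed and at 34.1, 20.1, 26.6 and 24.8 RPKM in irradiated Trp53+/+ non-B cells, and its log2 difference was 1.52 ± 0.28 (adjusted p = 0.00402). In Trp53-/- non-B cells it was at 5.86 and 5.57 RPKM unstressed and at 17.6 and 11.3 RPKM after IR. The groups did not overlap in either genotype, although the Trp53-/- difference of 1.23 (95% interval 0.38 to 2.09, adjusted p = 0.159) was not called.

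Gadd45b was at 31.5, 27.1, 18.4 and 19.1 RPKM in unstressed and at 47.2, 49.1, 36.7 and 40.2 RPKM in irradiated Trp53+/+ non-B cells, a log2 difference of 0.86 ± 0.18 (adjusted p = 0.00891) with no overlap. In Trp53-/- non-B cells it was at 20.9 and 17.8 RPKM unstressed and at 30.1 and 20.6 RPKM after IR, which overlapped, with a difference of 0.36 (95% interval −0.20 to 0.92).

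Gadd45a depended on which unstressed samples it was compared with. It was at 37.3, 34.8, 14.2 and 17.1 RPKM in unstressed Trp53+/+ non-B replicates 1 to 4 and at 48.8, 41.4, 44.9 and 30.4 RPKM in irradiated ones, a log2 difference of 0.77 ± 0.28 (adjusted p = 0.0763) that was not called. Replicates 1 and 2 stood apart from replicates 3 and 4, and the irradiated group overlapped with the former only. With the replicate number as a block, the same difference had an adjusted p of 0.0263 and was called. That block joins same-numbered non-B samples of both treatments and both genotypes, which no stated design pairs.

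The same 2 unstressed samples stood apart in erythroid markers (Klf1, Car1, Epor, Alas2, Tfrc and Hemgn), whose summed RPKM was 289 and 274 in replicates 1 and 2 and 103 and 118 in replicates 3 and 4. They stood apart in other marker sums too. Neutrophil markers were at 573 and 529 RPKM in them against 319 and 370 RPKM, and plasma cell markers at 158 and 152 against 111 and 110 RPKM. T cell markers were lower in them, at 338 and 355 against 485 and 488 RPKM, as were NK cell markers, at 199.9 and 211.6 against 296 and 317 RPKM. In irradiated Trp53+/+ non-B samples the sum was 21.8 to 44.9 RPKM, and in Trp53-/- non-B samples 65.6 to 209 unstressed and 76.2 to 91.5 after IR. Of the 6 erythroid markers, 5 fell after IR in Trp53+/+ non-B cells, and none was called in Trp53-/- non-B cells. Without the 2 unstressed samples high in these markers, an alternative chosen after seeing the data, the Gadd45a difference was 1.36 ± 0.17 (adjusted p = 0.00109) and its genotype difference 1.35 ± 0.27 (adjusted p = 0.0178). The same omission left Tob1 at 0.59 (adjusted p = 0.0511). Trp53-/- replicate 2, also high in erythroid markers at 209 RPKM, had a Gadd45a level of 17.3 RPKM against 17.5 RPKM in replicate 1. The part of erythroid or other cells in these values was not tested.

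**Figure D4:**
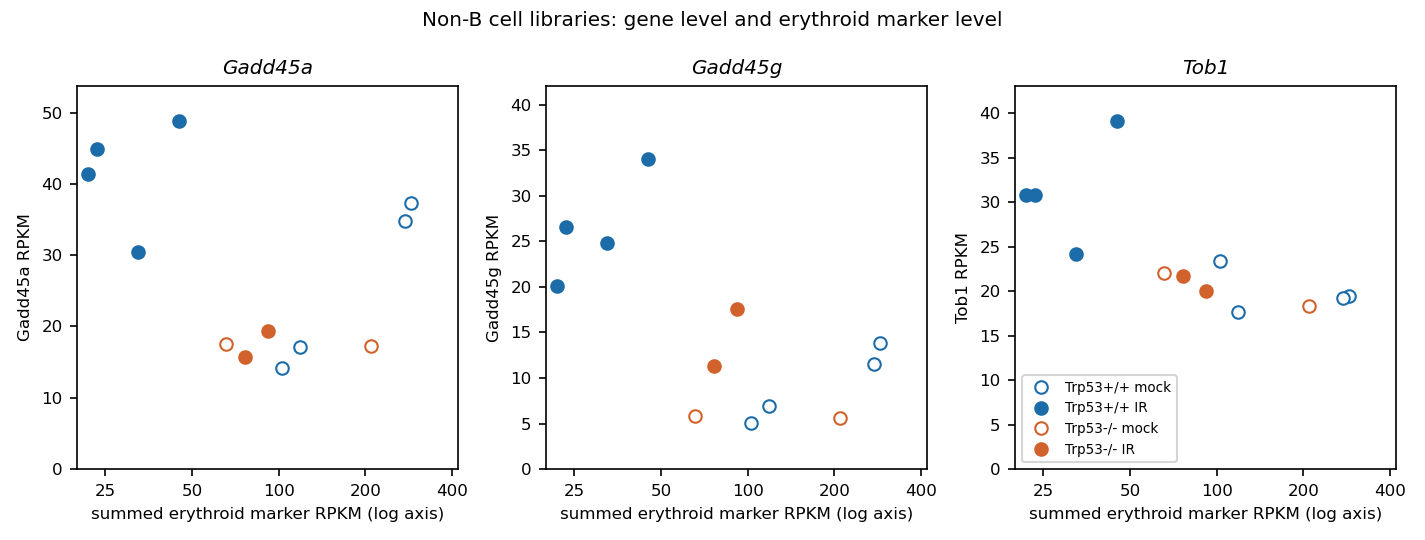
Gadd45a, Gadd45g and Tob1 RPKM (vertical axes) against the summed RPKM of 6 erythroid markers (horizontal axis, log scale) in the 12 non-B cell libraries. Open points are mock, filled points IR, blue Trp53+/+ and orange Trp53-/-. The 2 unstressed Trp53+/+ samples with the most erythroid marker RNA are the 2 with high Gadd45a (34.8 and 37.3 RPKM), and Tob1 in them (19.2 and 19.5 RPKM) lies within the other unstressed samples.

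Among Btg/Tob genes in non-B cells, Tob1 was at 19.5, 19.2, 23.4 and 17.7 RPKM in unstressed and at 39.1, 30.8, 30.8 and 24.1 RPKM in irradiated Trp53+/+ samples, with no overlap. Its log2 difference was 0.62 ± 0.14 (adjusted p = 0.0109), just above the fold threshold, and was 0.51 without irradiated replicate 1 and 0.57 without unstressed replicate 4, below it. Without p53 it was at 22.0 and 18.3 RPKM unstressed and 20.1 and 21.7 RPKM after IR. These overlapped, with a difference of 0.05 (95% interval −0.37 to 0.47).

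Btg2 was at 74.5, 74.5, 78.8 and 76.0 RPKM in unstressed and at 122, 121, 110 and 90.7 RPKM in irradiated Trp53+/+ non-B cells. All irradiated values were higher, and the log2 difference of 0.53 ± 0.09 (adjusted p = 0.00285) was below the fold threshold. In Trp53-/- non-B cells it was at 76.2 and 68.0 RPKM unstressed and at 74.0 and 78.0 RPKM after IR, which overlapped. The difference there was 0.08 (95% interval −0.21 to 0.36), and the responses differed by 0.46 (95% interval 0.11 to 0.80, adjusted p = 0.0992), which was called without the irradiated Trp53+/+ replicate 4 (0.55, adjusted p = 0.0167).

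The remaining members gave no call in non-B cells. Btg1 ranged from 58.4 to 72.8 RPKM in unstressed and from 64.5 to 91.6 RPKM in irradiated Trp53+/+ samples, a log2 difference of 0.34 (95% interval 0.08 to 0.61, adjusted p = 0.0705), and its Trp53-/- difference was 0.31 (−0.07 to 0.69). Btg3 ranged from 13.9 to 15.4 RPKM and from 13.1 to 21.7 RPKM, with differences of 0.18 (−0.11 to 0.46) with and 0.24 (−0.16 to 0.64) without p53. Tob2 gave −0.10 (−0.28 to 0.07) with and 0.32 (0.07 to 0.56, adjusted p = 0.201) without p53.

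The 2 fractions were next compared in Trp53+/+ samples, to ask where the members' levels and responses differed by cell type. In unstressed samples no member was called by limma, 4 had an unadjusted p under 0.05, and 24.6% of 14598 genes were called. Tob1 and Btg3 were lower in B cells by log2 differences of −0.50 ± 0.13 (adjusted p = 0.00419) and −0.46 ± 0.13 (adjusted p = 0.00935), below the fold threshold. The split of all calls depended on scaling here, with 30% higher in B cells as reported and 50.7% with quantile normalization. Gadd45g was higher in B cells by 0.53 (95% interval 0.07 to 1.00, adjusted p = 0.0627), and by 1.04 ± 0.16 (adjusted p = 0.000115) without the 2 unstressed non-B samples high in erythroid markers.

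The IR response differed by cell type for 1 member, Btg3 (0.59 ± 0.18 more in B cells, adjusted p = 0.0241), against 28% of all genes. Without unstressed B cell replicate 3 or irradiated B cell replicate 3 the adjusted p was 0.0528 or 0.0539. Without the 2 unstressed non-B samples high in erythroid markers, Btg3 had an adjusted p of 0.0531, and Gadd45a, Gadd45b and Gadd45g were called in the other direction, with values of −0.96, −0.75 and −0.64.

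Ordered by mean level, irradiated Trp53+/+ non-B cells were at the top for Gadd45a (41.4 ± 7.9 RPKM), Gadd45b (43.3 ± 5.8), Btg1 (81.7 ± 12), Btg2 (111 ± 14) and Tob1 (31.2 ± 6.1), each SD over 4 samples. For Tob1 that group was apart from the next, irradiated Trp53-/- non-B cells, whereas for the other 4 genes its range overlapped that of the group ranked second. Irradiated Trp53-/- B cells were at the bottom, and apart from the next group up, for Gadd45a (8.03 ± 1.7 RPKM, n = 2), Btg1 (50.7 ± 5.0), Btg2 (48.8 ± 0.95) and Tob1 (8.14 ± 0.76). The same group was at the top for Gadd45g (35.0 ± 4.6) and Btg3 (18.7 ± 0.11), where it overlapped with irradiated Trp53+/+ B cells. For Tob2, ranges of all neighbouring groups in the order overlapped, from 25.4 RPKM in irradiated to 20.3 RPKM in unstressed Trp53-/- non-B cells. The summed Btg/Tob RPKM in B cells was 188 ± 11 unstressed and 225 ± 7.3 after IR with p53, and 194 ± 14 and 150 ± 0.52 without p53.

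Across the 24 samples, which share groups and sorting, correlations between levels of the members are given as a description. Gadd45a, Btg2 and Tob1 had Pearson correlations of log2(RPKM + 0.5) of 0.767 (Gadd45a and Btg2), 0.813 (Gadd45a and Tob1) and 0.751 (Btg2 and Tob1). Btg1 was close to these, at 0.651 with Gadd45a, 0.7 with Btg2 and 0.719 with Tob1. Gadd45b and Gadd45g correlated at 0.828, while Gadd45a and Gadd45g did so at 0.164. Among 13055 other genes, Trp53inp1, a known p53 target, was among the 2 most like Btg2 (0.936). Those most like Gadd45a were Tcn2 (0.934), a vitamin B12 carrier, and Gyg (0.918), which primes glycogen synthesis, and those most like Tob1 were Glipr2 (0.937) and Arid5a (0.931). Gadd45g was closest to Marcksl1 (0.938) and Snai1 (0.924), Gadd45b to Mvp (0.895) and Ankrd33b (0.848), and Btg3 to Focad (0.915) and the chemokine gene Ccl22 (0.914). Btg1 and Tob2 had weaker companions, Slfn2 (0.793) and Dync1li1 (0.784) for the former and Nab2 (0.701) and Trim65 (0.667) for the latter.

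Genes linked to these families as partners, by name or by a shared role were taken from lists. Not all of them are genes on which these proteins act. The list counts stand beside 12.5% of all genes called higher and 12.2% lower in Trp53+/+ B cells. The shares were 13.1% and 11.2% in Trp53-/- B cells, and 5.74% and 4.11% in Trp53+/+ non-B cells. In the Gadd45 kinase cascade, 3 of 10 genes fell and none rose in Trp53+/+ B cells, namely Mapk11 (p38 beta, −1.55 ± 0.15), Map2k6 (a p38-activating kinase, −1.14 ± 0.12) and Map3k5 (−0.76 ± 0.13). The list's median log2 difference was −0.206, against 0.0111 over all genes. Map3k4, the direct Gadd45 target, named for that role and not by a call, had a difference of −0.20 (95% interval −0.39 to −0.01, adjusted p = 0.0727). In Trp53-/- B cells Map2k6 (−1.39) and Map3k5 (−1.14) fell and Mapk11 was not called, and the response of Mapk11 differed between genotypes by −1.07 ± 0.26 (adjusted p = 0.0132). In Trp53+/+ non-B cells 1 of 10 fell, Mapk11 (−1.03 ± 0.18).

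Of 8 cell-cycle and repair partners of Gadd45, 3 rose and 2 fell in Trp53+/+ B cells. Besides Cdkn1a, which encodes p21, these were Apex1 (a base-excision repair nuclease, 0.83 ± 0.08) and Tdg (a DNA glycosylase, 0.60 ± 0.06), and on the falling side Cdk1 (−1.35 ± 0.20) and Ccnb1 (−1.17 ± 0.28), the kinase and cyclin of mitotic entry. Without p53, 2 rose and none fell in B cells. Those were Apex1 (0.98) and Gadd45gip1 (0.64), the latter named although it lies outside the rule for named genes and was chosen after its value was seen. In Trp53+/+ non-B cells Cdkn1a rose (3.99 ± 0.21), and Ccnb1 (−2.27 ± 0.57) and Cdk1 (−1.71 ± 0.52) fell. Erythroid markers fell after IR in Trp53+/+ cells of both fractions, and their part in these values was not tested.

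Of 6 stress genes named with Gadd45, 3 rose in Trp53+/+ B cells, Ddit4 (a brake on mTOR, 1.53 ± 0.15), Ppp1r15a (Gadd34, 1.05 ± 0.14) and Ddit3 (Chop, 0.59 ± 0.07). No gene of this list was called in Trp53-/- B cells, where Ddit3 had a similar difference of 0.56 (adjusted p = 0.00063) just under the fold threshold, and the difference between responses was called for Ddit4 alone (1.81 ± 0.27, adjusted p = 0.000737). In Trp53+/+ non-B cells Ddit4 (0.89 ± 0.16) and Ppp1r15a (0.65 ± 0.17) rose.

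The CCR4-NOT and deadenylation genes, through which Btg and Tob proteins act, numbered 19 tested. In Trp53+/+ B cells 1 rose and none fell, where 12.5% and 12.2% of all genes did, namely Pabpc4 (a poly(A)-binding protein, 0.66 ± 0.07), with a list median of −0.0273. Cnot7 and Cnot8, the subunits bound by Btg and Tob proteins and named for that role, had differences of −0.23 (95% interval −0.38 to −0.08) and −0.03 (−0.16 to 0.11). Without p53, 2 rose in B cells, Pabpc4 (0.89) and Rqcd1 (0.65), the latter named after its value was seen. In Trp53+/+ non-B cells Pabpc4 fell (−0.92 ± 0.19), and its response differed between cell types by 1.58 ± 0.21 (adjusted p = 5.64e-05).

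Of 7 tested Btg and Tob partners, Ccnd2 (cyclin D2, 0.94 ± 0.08), the methyltransferase gene Prmt1 (0.73 ± 0.08) and Smad3 (0.62 ± 0.06) rose and Ccnd1 (−0.79 ± 0.17) fell in Trp53+/+ B cells. Ccnd2 (1.30) and Prmt1 (0.83) also rose in Trp53-/- B cells, and no gene of this list was called in non-B cells of either genotype.

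Of 10 lymphocyte quiescence factors, 1 rose and 2 fell in Trp53+/+ B cells, near the shares of all genes (12.5% and 12.2%), and 5 fell in Trp53-/- B cells, where 11.2% of all genes did. Foxo3, a transcription factor of resting cells, rose with p53 (1.30 ± 0.07) and fell without it (−0.76 ± 0.10), and the responses differed by 2.06 ± 0.12 (adjusted p = 3.87e-07). Klf2 fell in both genotypes (−1.34 ± 0.11 and −1.92 ± 0.16), and its target S1pr1, the receptor for lymphocyte exit, fell with p53 (−1.56 ± 0.08). The other genes that fell in Trp53-/- B cells were Klf4 (−1.18), Foxp1 (−0.69) and Foxo1 (−0.67), named after their values were seen. The median over this list was −0.579 in Trp53-/- and −0.0112 in Trp53+/+ B cells. No gene of this list was called after IR in non-B cells, and Foxo3 differed between genotypes there by 0.80 ± 0.15 (adjusted p = 0.00956).

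For comparison, all 10 reference p53 targets rose in Trp53+/+ B cells and in Trp53+/+ non-B cells, with medians of 2.37 and 1.63 on the log2 scale. This list was chosen with earlier results of these data known, so that it is a description and no independent yardstick. Examples in B cells are Phlda3 (6.17 ± 0.13), Bbc3 (4.35 ± 0.11) and Sesn2 (3.44 ± 0.09), above the 0.34 to 0.40 of Gadd45a, Btg2 and Tob1. All 10 also differed between genotypes in both fractions. In Trp53-/- B cells 2 of the 10 fell, Trp53inp1 (−1.29 ± 0.09) and Phlda3 (−0.69 ± 0.19), and Aen rose (1.15 ± 0.08). Trp53inp1 lies outside the rule for named genes and was named after its value was seen.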

How the data were processed

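The 24 RNA samples of mouse spleen fractions were grouped by the sample records. The authors deposited RPKM values, 1 table per sample for 21671 genes. Per the study's methods and the submitters' processing notes, they removed ribosomal RNA, masked bases of quality under 20, mapped the reads with TopHat (build mm9), collapsed duplicates, and scaled featureCounts 1.4.5 gene counts by exon length and exon-mapped depth. The counting options that the methods give include no strand setting, so that reads of overlapping antisense genes cannot be told apart.

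Tests covered genes that exceeded 1 RPKM in any Trp53+/+ sample of the fit and used log2(RPKM + 0.5) with limma 3.58.1 in R 4.3.3 (mean-variance trend, Benjamini-Hochberg adjustment over all genes fitted). The 12 samples of each fraction formed 1 fit of 4 group means, and the 16 Trp53+/+ samples another fit. Fold changes on this scale understate changes of low genes. The collapse of duplicates can in turn understate levels and changes of high genes, which was not tested. Python 3.11.15 with numpy 2.4.6, pandas 2.3.3 and matplotlib 3.10.9 did the rest. Depth is not in the RPKM tables and was estimated from the steps of low RPKM values with gene lengths for 91.9% of genes. Only 58.1% to 70.4% of low values lay at most 0.1 from an integer number of reads (20% would do so by chance), so reads were not recovered and no count test was run. On these estimates members had 51 to 3638 reads per library, which at 51 gives a counting error of 14%.

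The members and gene lists were chosen with earlier results of these data known. Named genes are the 8 members, up to 6 genes per pathway list called in Trp53+/+ cells by size, and for each member the 2 genes with the highest correlation over 24 samples. Samples of the same replicate number deviated together in unstressed and irradiated Trp53+/+ non-B cells (correlations of 0.155 to 0.33), which pairs them by these data and not by a stated design, and not in Trp53+/+ B cells (0.01 to 0.0906). Alternatives were other pseudocounts, filters, scalings and thresholds, a replicate block, omission of libraries with many receptor genes or of each replicate, and 1 fit of all samples. A few genes that these lists and rules would name are not reported here, and marker sums leave them out.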

Additional observations from a re-analysis of the deposited data

Results flagged for a closer look

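Of the results, 4 called for a closer look because the response to IR differed between groups by a test of the difference itself. In B cells the genotype difference of the log2 response was 1.4 for Gadd45a, 1.11 for Btg2 and 1.03 for Tob1, each with every irradiated Trp53-/- sample below every irradiated Trp53+/+ sample. For Btg3 the response of Trp53+/+ B cells exceeded that of Trp53+/+ non-B cells by 0.59.

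In 32 groups of 4 samples, one for each member and Trp53+/+ condition, 2 held a sample far from the other 3. Chance flags about 1 in 20 such groups. Gadd45g was at 32.95 RPKM in irradiated Trp53+/+ B cell replicate 1, with the other 3 between 35.1 and 35.2 RPKM. Tob2 was at 29.34 RPKM in unstressed Trp53+/+ B cell replicate 4, with the others between 22.0 and 23.1 RPKM, and without that sample its difference after IR was −0.06 in place of −0.15, called in neither case.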

How the results depend on the processing

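Of 371 alternative values of the 15 differences called for the members, 357 kept the call, 14 lost it and 0 changed sign. In Trp53+/+ non-B cells, Tob1 lost the call in 6 of them (0.51 to 0.71), Gadd45g without libraries over 20% of receptor genes (1.16, adjusted p = 0.23) and with the receptor share as covariate (1.39, adjusted p = 0.0789), and Gadd45b with that omission (1.05, adjusted p = 0.137). The cell type difference of Btg3 lost it in 4 (0.52 to 0.59) and the decrease of Tob1 in Trp53-/- B cells in 1. That omission leaves 1 irradiated non-B library, which is assumed to vary like the other groups, and an adjusted p under 0.01 only tightens the threshold. Other causes were not tested. How far depth limits each difference was not tested. The 357 kept calls include values with little or no room to change. Removing the fold threshold cannot lose a call, and leaving out a replicate outside a comparison keeps its log2 difference.

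Counts of members called that changed by over 1.5 times were as follows. Quantile normalization gave 1 genotype difference in non-B cells (Btg2), 1 difference between unstressed B and non-B cells (Gadd45g) and 2 cell type differences (Btg2 and Btg3). Without libraries over 20% of receptor genes, 1 member in place of 3 was higher in irradiated Trp53+/+ non-B cells. The receptor share as covariate gave 4 higher in Trp53+/+ B cells. All 24 samples in 1 fit gave 1 member higher in Trp53-/- non-B cells (Gadd45g) and 1 genotype difference in non-B cells (Btg2). An adjusted p under 0.01 left 0 cell type differences. No fold threshold gave 6 members higher in Trp53+/+ B cells and 2 that differed between unstressed B and non-B cells (Btg3 and Tob1). Another 2 omissions were chosen after seeing the data. Without the 2 unstressed non-B samples high in erythroid markers, 1 genotype difference in non-B cells (Gadd45a), 1 difference between unstressed B and non-B cells (Gadd45g) and 3 cell type differences were called. Without libraries over 30% of receptor genes, 1 genotype difference in non-B cells (Btg2) and 3 cell type differences (Btg1, Btg2 and Btg3) were called. In irradiated Trp53+/+ non-B cells other members were called in place of or beside those of the report. These were Gadd45a with all 24 samples in 1 fit (0.77, adjusted p = 0.0188) and without unstressed replicate 1 (0.98, adjusted p = 0.0313), and Btg2 with the receptor share as covariate (0.65, adjusted p = 0.0132), with no fold threshold, without libraries over 30% of receptor genes (0.67) and without irradiated replicate 4 (0.63, adjusted p = 0.000307).

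Leaving out each replicate in turn gave 0 to 1 genotype differences in non-B cells, the 1 without irradiated Trp53+/+ replicate 4 (Btg2). Cell type differences ranged from 0 (without replicate 3 of either Trp53+/+ B cell group) to 3 (without irradiated Trp53+/+ non-B replicate 4, which added Btg1 and Btg2), with Gadd45b added (−0.58) without unstressed non-B replicate 1. Between unstressed B and non-B cells 0 to 1 members were called, Gadd45g without unstressed non-B replicate 1 (0.75) or 2 (0.66) and Gadd45a without replicate 3 (−0.79) or 4 (−0.70).

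With the replicate block, 4 members in place of 3 were higher in irradiated Trp53+/+ non-B cells, Gadd45a being added, and it changed no other call among the members. In Trp53+/+ B cells, whose samples share only a number, 2 members were higher with and without it. In Trp53-/- non-B cells same-numbered samples deviated oppositely (−0.264), and with the numbers crossed 0 members were called higher or lower there.

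Some log2 differences that were not called changed sign. With median-ratio scaling, values were −0.011 for Tob1 in the unstressed genotypes in non-B cells. With quantile normalization, values were 0.0575 for Btg3 in the genotype difference in B cells, 0.00456 for Btg3 in the genotype difference in non-B cells and −0.102 for Btg2 in unstressed B against non-B cells. With the replicate block, values were 0.02 for Btg3, 0.0379 for Tob1 and 0.0469 for Tob2 in the unstressed genotypes in B cells and 0.0355 for Btg3 and −0.0501 for Tob1 in the unstressed genotypes in non-B cells. Without libraries over 20% of receptor genes, values were −0.0202 for Btg1 for IR in Trp53+/+ B cells, 0.0848 for Btg3 in the genotype difference in B cells, −0.0726 for Gadd45g in the genotype difference in non-B cells and 0.262 for Gadd45g in the cell type difference. With the receptor share as covariate, values were −0.0413 for Btg1 for IR in Trp53+/+ B cells, 0.0756 for Btg3 in the genotype difference in B cells and −0.0162 for Btg3 for IR in Trp53+/+ non-B cells. Without the 2 unstressed samples high in erythroid markers, values were −0.00904 for Btg1 in the genotype difference in non-B cells, 0.151 for Gadd45a, 0.0405 for Gadd45b and −0.0173 for Tob1 in the unstressed genotypes in non-B cells, 0.0449 for Gadd45a and −0.00738 for Tob2 in unstressed B against non-B cells and 0.0429 for Tob2 in the cell type difference. Without libraries over 30% of receptor genes, values were −0.0585 for Btg3 for IR in Trp53+/+ non-B cells. Leaving out each replicate in turn gave ranges that spanned 0. For IR in Trp53-/- B cells, these were −0.165 to 0.149 for Tob2. For IR in Trp53-/- non-B cells, these were −0.00455 to 0.158 for Btg2, −0.141 to 0.151 for Gadd45a and −0.0761 to 0.184 for Tob1. In the cell type difference, these were −0.337 to 0.115 for Gadd45g and −0.107 to 0.0398 for Tob2. In the genotype difference in B cells, these were −0.113 to 0.0426 for Btg3, −0.0438 to 0.266 for Gadd45g and −0.304 to 0.00958 for Tob2. In the genotype difference in non-B cells, these were −0.162 to 0.227 for Btg1, −0.191 to 0.0452 for Btg3 and −0.019 to 0.597 for Gadd45g. In unstressed B against non-B cells, these were −0.066 to 0.187 for Gadd45b and −0.00419 to 0.143 for Tob2. In the unstressed genotypes in B cells, these were −0.106 to 0.282 for Btg1, −0.00326 to 0.0876 for Btg2, −0.0645 to 0.0275 for Btg3, −0.188 to 0.244 for Gadd45a, −0.0326 to 0.277 for Gadd45g, −0.197 to 0.102 for Tob1 and −0.0512 to 0.0836 for Tob2. In the unstressed genotypes in non-B cells, these were −0.157 to 0.00493 for Btg2 and −0.112 to 0.148 for Tob1.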
